A study of Mus musculus with 6 samples.

Results

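The 9 genes described here encode CD44 and the machinery of its ligand hyaluronan: the receptors Cd44 and Hmmr, the hyaluronan synthases Has1, Has2 and Has3, the hyaluronidases Hyal1 and Hyal2, and the hyaluronan-binding matrix proteins Vcan and Tnfaip6. They were chosen by gene symbol from the 30315 genes of the expression table, and all 9 symbols were found. The rule sets no condition on their values, but the choice was made with earlier results of these data known. RNA-Seq was performed on primary renal tubular epithelial cells (TECs) of C57BL/6 mice, that is, cultured cells isolated from the tubules of the kidney. The siSox9 group, 3 libraries, received a small interfering RNA (siRNA) against Sox9, a transcription factor found in repairing tubular cells. The siNC group, 3 libraries, received a control siRNA. Cells of both groups were transfected 12 h before hypoxia/reoxygenation (H/R), which was 6 h without glucose in 1.0% O2, 94% N2 and 5% CO2, then 18 h in complete medium at normal oxygen. Since every library had H/R, the comparison is between siRNAs in injured cells, and there was no uninjured group. Each target had 1 siRNA, and nothing in the sources used here says whether the replicates were separate cultures or animals, so p-values measure only the spread between these samples, which may be technical.

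Hyaluronan is a long, unsulfated sugar polymer made at the plasma membrane by hyaluronan synthases, which extrude it into the matrix around the cell. CD44 is its main cell-surface receptor and links it, through ezrin, radixin and moesin, to the actin cytoskeleton; in the kidney CD44 is known to appear on injured tubular cells. HMMR, also called RHAMM, binds hyaluronan too, but much of it sits on microtubules of the mitotic spindle, and its mRNA is made mainly in dividing cells.

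Values are FPKM, the reads of a gene divided by its exon length and the reads of the library. The FPKM values came out as whole reads for 93.3% of values, within 0.02 reads, which gave totals of 23893197 to 25725743 reads per library. Sox9, the target of the siRNA, was at 8.93, 8.61 and 9.07 FPKM with siSox9 and at 25.7, 26.5 and 25.6 FPKM with siNC. It fell by 1.45 on the log2(FPKM + 1) scale (SE 0.03, limma, Benjamini-Hochberg adjusted p = 7.03e-06), to 34.2% of the siNC mean. Tubule markers were abundant, the 8 listed summing to 3652 to 3969 FPKM and led by Krt8 and Krt18. Markers of the differentiated proximal tubule were low, Lrp2 being the highest at a mean of 2.27 FPKM. Of the proximal tubule markers, 5 of 6 were in the table and summed to 2.67 to 3.31 FPKM, most of it Lrp2 and Cubn. Slc34a1 was listed at 0 in the 3 siNC libraries and Slc5a2 in the 3 siSox9 libraries. A non-coding RNA, Gm23935, had the highest value in siNC replicates 2 and 3, with 3.72% and 6.35% of the summed FPKM. In the other libraries mt-Co1 was highest, at 3.161% to 3.805%, and the share of Gm23935 there is not given here.

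Of the 9 genes, 6 reached a mean level of 1 FPKM over the 6 libraries and were tested, and 3 of these passed the threshold of adjusted p under 0.05. Over all 12009 genes tested with limma, 3650 passed, or 30.4%, so 3 of 6 is read against a broad background. Cd44 and Hyal2 rose, where 12.8% of all genes tested rose, and Hmmr fell, where 17.6% fell. These shares depend on the scaling and on the libraries kept. With median-centred values 1959 genes were higher and 1765 lower, in place of 1532 and 2118. Leaving out 1 library at a time gave totals of 2424 to 3654. The groups did not overlap in 5 of the 6, the exception being Hyal1, and in 46.3% of all genes tested. The median difference of the 6 was 0.11 on the log2(FPKM + 1) scale, against -0.01 for all genes tested. Has1, Has3 and Tnfaip6 were under the minimum and are given as values. In bulk RNA a change in the number of cells that express a gene cannot be told apart from a change in RNA per cell.

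**Figure D1:**
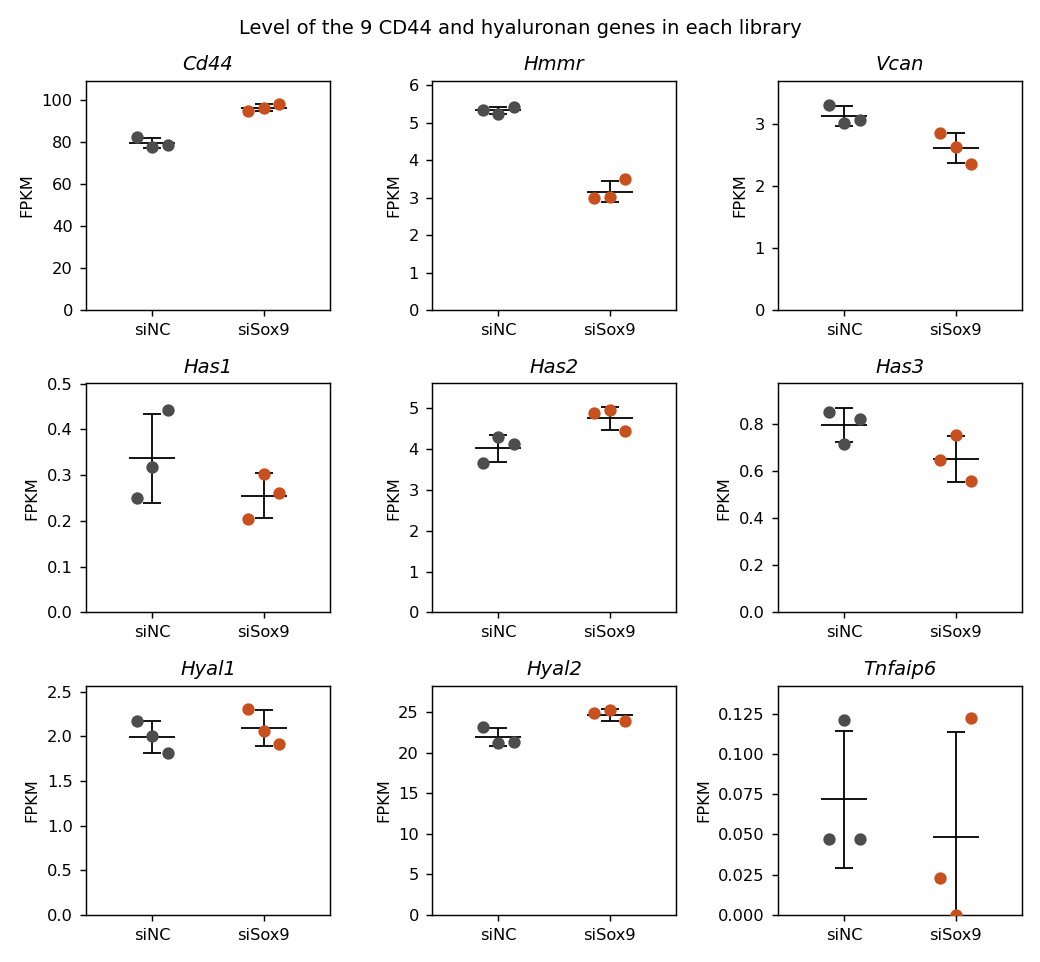
Level of each of the 9 genes, in FPKM on axes that start at 0; points are the 3 libraries of each group, the horizontal mark is their mean and the bars are ± 1 SD. All 3 siSox9 points lie above the siNC points for Cd44 (94.99 to 98.14 against 77.48 to 82.38 FPKM), Hyal2 and Has2, and below them for Hmmr and Vcan; the groups overlap for Hyal1, Has1, Has3 and Tnfaip6.

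The promoters of the 3 genes that passed the threshold are printed so that the Hmmr promoter can be set beside those of the mitotic genes described further on. They are RefSeq sequences of build GRCm38.p6, from 250 bases before to 50 bases after the RefSeq start of the gene, 5′ to 3′ on the strand of the gene, so that base 251 is the start. The capitals mark matches to 4 strings searched on both strands: ACAAT, the core letters of SOX family sites; TTTGAA, the cell cycle homology region (CHR) known from promoters of mitotic genes; CCAAT; and GGGCGG, the GC box. An opposite-strand match of CCAAT reads ATTGG. Cd44 lies at chr2:102901616-102901915, Hyal2 at chr9:107568913-107569212 and Hmmr at chr11:40733388-40733687, on the -, + and - strand.
Cd44: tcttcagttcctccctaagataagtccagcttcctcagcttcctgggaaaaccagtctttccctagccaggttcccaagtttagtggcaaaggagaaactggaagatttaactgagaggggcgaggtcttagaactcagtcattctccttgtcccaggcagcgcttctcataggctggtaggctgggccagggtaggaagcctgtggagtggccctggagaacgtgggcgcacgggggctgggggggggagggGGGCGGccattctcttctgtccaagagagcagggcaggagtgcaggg
Hyal2: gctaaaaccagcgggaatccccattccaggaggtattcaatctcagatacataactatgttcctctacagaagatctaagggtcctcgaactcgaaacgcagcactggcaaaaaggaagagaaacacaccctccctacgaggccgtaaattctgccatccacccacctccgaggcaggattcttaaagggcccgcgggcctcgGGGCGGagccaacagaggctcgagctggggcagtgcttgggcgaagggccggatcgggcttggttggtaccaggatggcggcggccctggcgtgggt
Hmmr: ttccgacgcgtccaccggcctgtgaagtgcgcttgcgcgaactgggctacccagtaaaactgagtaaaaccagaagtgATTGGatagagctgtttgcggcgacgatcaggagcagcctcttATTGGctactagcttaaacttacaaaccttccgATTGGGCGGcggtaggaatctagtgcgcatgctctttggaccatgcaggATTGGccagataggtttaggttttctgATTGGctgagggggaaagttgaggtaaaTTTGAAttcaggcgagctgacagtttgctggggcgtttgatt
The Cd44 window held 1 GC box, at bases 254 to 259, in a sequence of 58.0% GC with 6 CpG. The Hyal2 window held 1 GC box, at bases 204 to 209, with 58.3% GC and 18 CpG. The Hmmr window, of 50.7% GC, held TTTGAA at bases 259 to 264 and 5 CCAAT boxes on the opposite strand, at bases 79, 122, 155, 204 and 231. One of these, the ATTGG at base 155, overlaps the single GC box at bases 158 to 163. Of 32851 RefSeq promoters of the same length, 31.0% held ACAAT, 17.9% TTTGAA, 37.4% CCAAT and 35.7% GGGCGG. Windows were matched for 7 of the 9 genes, all but Has2 and Has3. Among them ACAAT was found in Tnfaip6 alone and TTTGAA in Hmmr and Has1. A match is a description of letters and not a bound site.

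Cd44 (ENSMUSG00000005087), the hyaluronan receptor, spans chr2:102811141-102901665 on the - strand of GRCm38 and is annotated with 9 transcripts, 8 of them protein-coding, of up to 19 exons. It was the most abundant of the 9 genes, with a level above that of 96.1% of the genes tested. With siSox9 it was at 94.99, 96.11 and 98.14 FPKM (96.41 ± 1.596, SD, n = 3) and with siNC at 82.38, 77.48 and 78.70 FPKM (79.52 ± 2.553, SD, n = 3). Every siSox9 library was above every siNC library, and the gap between the groups was wider than the spread within either. Cd44 rose by 0.28 on the log2(FPKM + 1) scale (SE 0.03, 95% interval 0.20 to 0.35, limma, Benjamini-Hochberg adjusted p = 0.00125), which is a 1.21-fold higher mean. The rise rests on 12678 to 16559 reads per library, so counting error is small beside it. Of the genes tested, 609 had a larger positive difference, which places Cd44 at percentile 94.9. A gene-level value sums the standard form of CD44 and the variant forms that carry extra exons, and these were not separated. No exon base of Cd44 is shared with another annotated gene.

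Leukocytes carry CD44 as well, so their markers are given beside it. All 9 macrophage and leukocyte markers listed were in the table, 7 of them were tested and 1, the lysozyme gene Lyz2, passed the threshold. Over all genes tested 30.4% passed. Lyz2 rose by 0.21 on the log2(FPKM + 1) scale (SE 0.05, limma, adjusted p = 0.0175), from 71.9 ± 3.78 to 83.4 ± 3.91 FPKM (SD, n = 3 each). C1qa, the other leading marker, was at 42.0 ± 3.79 FPKM with siNC and 38.1 ± 3.19 with siSox9 and did not pass (adjusted p = 0.228). The 9 markers summed to 178 to 197 FPKM with siSox9 and 178 to 183 FPKM with siNC, which overlap, and none was at 0 throughout a group. Their part in the Cd44 result was not tested. Of the tubule markers, Cdh16, a kidney cadherin, rose by 0.36 on the log2(FPKM + 1) scale (limma, adjusted p = 0.000307), and the other 7 did not pass the threshold.

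Over the 6 libraries, the genes whose log2(FPKM + 1) values, centred on their own means, came nearest to those of Cd44 were Bop1, Tmem161b and Tapbp, at root mean square differences of 0.0149, 0.0149 and 0.0152. Bop1, a ribosome assembly factor, was at 44.7, 45.2 and 46.7 FPKM with siSox9 and at 38.3, 36.8 and 37.8 with siNC. This is a likeness over 6 libraries of 2 groups.

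Hmmr (ENSMUSG00000020330, chr11:40701395-40733422, - strand, up to 18 exons) moved the other way. It was at 2.985, 3.002 and 3.483 FPKM with siSox9 (3.16 ± 0.283, SD, n = 3) and at 5.34, 5.24 and 5.42 FPKM with siNC (5.33 ± 0.0929, SD, n = 3). All siSox9 libraries were below all siNC libraries, replicate 3 of siSox9 being the least far below. Hmmr fell by 0.61 on the log2(FPKM + 1) scale (SE 0.06, 95% interval -0.74 to -0.48, limma, Benjamini-Hochberg adjusted p = 0.000438), to 59.2% of the siNC mean. On the recovered reads, 414 to 452 per library with siSox9 and 687 to 732 with siNC, limma voom gave -0.76 (adjusted p = 8.8e-07). With a pseudocount of 0.1 in place of 1, which shrinks changes of low genes less, limma gave -0.74. Of the 12009 genes tested, 163 had a more negative difference.

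The mitotic spindle and HMMR partner list shows the surroundings of this fall. Its 20 genes encode proteins that HMMR is known to work with, such as TPX2, Aurora A and the BRCA1-BARD1 pair, and standard genes of mitosis. All 20 were tested, 18 fell and none rose, where 17.6% of all genes tested fell and 12.8% rose. The list was chosen with earlier results of these data known. Its median was -0.62 on the log2(FPKM + 1) scale, close to the value of Hmmr. On this scale the largest falls were those of Plk1, a mitotic kinase, Mki67, the proliferation antigen Ki-67, Ccnb2, a B-type cyclin, and Kif11, the spindle motor Eg5. As a percentage of the siNC mean, Fam83d, a less abundant spindle protein gene, was lowest at 52.3%, beside 53.2% for Plk1.
Plk1 was at 7.11, 7.02 and 7.61 FPKM with siSox9 and at 13.7, 12.4 and 14.7 FPKM with siNC, and fell by 0.82 on the log2(FPKM + 1) scale (SE 0.06, limma, adjusted p = 0.000209). Mki67 fell by 0.78 (SE 0.04), from 12.5 ± 0.501 to 6.90 ± 0.254 FPKM (SD, n = 3 each). Ccnb2 fell by 0.77 (SE 0.08) and Kif11 by 0.74 (SE 0.04). In each of the 4 genes the groups did not overlap, as in 46.3% of all genes tested. Numa1, a spindle pole protein, and Dynll1, a dynein light chain, are also used outside mitosis and did not pass the threshold, at 105% and 95.4% of the siNC mean (adjusted p = 0.284 and 0.227).

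Relative to Mki67 and Tpx2, Hmmr was close to level between the groups. Other listed genes fell less or more than Hmmr, such as Tubg1 (83.5% of the siNC mean) and Plk1 (53.2%), and no ratio to them was taken. The ratio of Hmmr FPKM to Mki67 FPKM was 0.458 ± 0.0355 with siSox9 and 0.426 ± 0.0119 with siNC (SD, n = 3 each, exact permutation test, two-sided p = 0.3). The ratio to Tpx2, the spindle assembly factor, was 0.253 ± 0.0225 and 0.260 ± 0.00598 (exact permutation test, p = 0.7). With 3 libraries against 3 this test cannot go below 0.1, so neither p shows that the ratios were equal. The nearest genes to Hmmr over the 6 libraries were Ccnb1, a B-type cyclin, Smc2, a condensin subunit, and Il24, a cytokine, at root mean square differences of 0.0226, 0.0256 and 0.0256 in centred log2(FPKM + 1). The letters found in the Hmmr promoter printed above were also frequent in this list. Of 17 mitotic-list promoters matched, 11 (64.7%) held TTTGAA and 14 (82.4%) CCAAT, against 17.9% and 37.4% of all promoters. ACAAT was in 5 (29.4%), against 31.0%. TTTGAA is known from promoters of mitotic genes, and this list of such genes was chosen with earlier results known. The shares therefore describe the list, and a link to the fall of Hmmr was not tested. CCAAT was also in 5 of the 7 member promoters (71.4%), and the GC box was in 13 mitotic-list promoters (76.5%) and 6 member promoters (85.7%).

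**Figure D2:**
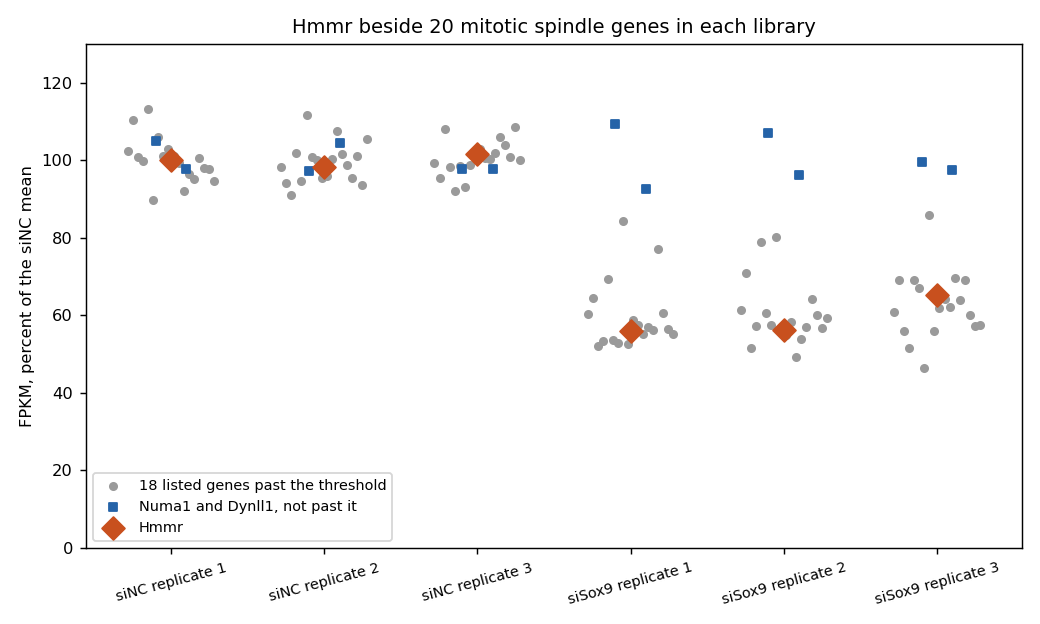
FPKM of Hmmr (diamonds) and of the 20 mitotic spindle genes in each of the 6 libraries, as a percentage of the siNC mean of each gene. In the siSox9 libraries Hmmr lies within the cloud of the 18 genes that passed the threshold (circles), at a mean of 59.2%, while Numa1 and Dynll1 (squares) stay near 100%.

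Of the 3 synthases, Has2 made up most of the transcripts. Has2 (ENSMUSG00000022367, chr15:56665627-56694539, - strand), the main synthase of many adult cells, was at 4.86, 4.93 and 4.42 FPKM with siSox9 and at 3.65, 4.29 and 4.10 FPKM with siNC. The siSox9 values lay above the siNC values in every library, but the gap between the lowest siSox9 and the highest siNC library was narrow. The difference was 0.20 on the log2(FPKM + 1) scale (SE 0.06, 95% interval 0.05 to 0.34) and did not pass the threshold (limma, adjusted p = 0.0521). It passed when siSox9 replicate 3 was left out (0.24, adjusted p = 0.0485), when siNC replicate 2 was left out (0.24, adjusted p = 0.0489), and on the recovered reads with limma voom (0.24, adjusted p = 0.0229). An antisense gene, Has2os, overlaps 182 exon bases of Has2 at a mean of 0.144 FPKM.

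Has3 (ENSMUSG00000031910, chr8:106870242-106884566, + strand) was at 0.646, 0.753 and 0.558 FPKM with siSox9 and at 0.852, 0.714 and 0.820 FPKM with siNC. The groups overlapped, and without a minimum the difference was -0.12 on the log2(FPKM + 1) scale (limma, adjusted p = 0.416). Has3 shares 352 exon bases, 5.52% of its exons, with Chtf8 on the other strand, which was far more abundant at 51.4 ± 0.909 and 45.8 ± 0.456 FPKM, so its low value is uncertain if reads were counted without strand. Has1 (ENSMUSG00000003665, chr17:17843328-17855188, - strand) was at 0.205, 0.301 and 0.260 FPKM with siSox9 and at 0.251, 0.317 and 0.443 FPKM with siNC. These values overlap too (-0.09 without a minimum, limma, adjusted p = 0.535).

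Summed over the 3 synthases, the level was 5.65 ± 0.377 FPKM with siSox9 and 5.15 ± 0.342 FPKM with siNC (SD, n = 3 each, exact permutation test, two-sided p = 0.3), and the groups overlapped. Has2 was 85.1%, 82.4% and 84.4% of the sum with siSox9 and 76.8%, 80.6% and 76.5% with siNC. These shares did not overlap (exact permutation test, two-sided p = 0.1, the smallest that 3 libraries against 3 can give). Has2 alone did not overlap either, so its share is not a separate result. The rest of the sum is Has1 and Has3, which were both under the minimum.

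**Figure D3:**
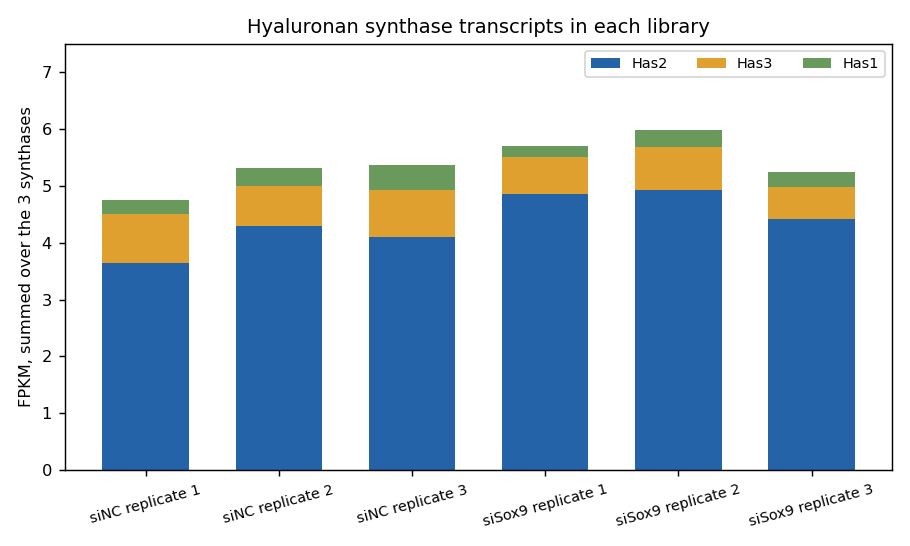
Stacked FPKM of Has2, Has3 and Has1 in each of the 6 libraries, on an axis that starts at 0. Has2 forms the bulk of each bar (76.5% to 85.1%), and the bar heights of the groups, 4.75 to 5.37 FPKM with siNC and 5.24 to 5.99 FPKM with siSox9, overlap.

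Genes that supply the sugar nucleotides of hyaluronan did not move as a block. Of 10 genes on the precursor list, 9 were tested, 2 rose and 1 fell, with a median of 0.05 on the log2(FPKM + 1) scale. Over all genes tested 12.8% rose and 17.6% fell. Ugp2, which makes UDP-glucose, was at 18.8, 19.2 and 19.8 FPKM with siSox9 and at 24.5, 25.5 and 25.3 FPKM with siNC. It fell by 0.37 on the log2(FPKM + 1) scale (SE 0.03, limma, adjusted p = 0.000387), with no overlap between groups. Hk2, a hexokinase at the head of glycolysis and of this route, rose by 0.23 (SE 0.05, adjusted p = 0.0108, limma), from 37.2 ± 1.99 to 43.7 ± 1.61 FPKM (SD, n = 3 each), and Gpi1, the glucose phosphate isomerase, rose by 0.10 (adjusted p = 0.0396). Ugdh, which oxidises UDP-glucose to the UDP-glucuronic acid used by the synthases, was at 7.51 ± 0.0738 and 7.53 ± 0.134 FPKM (adjusted p = 0.962).

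Hyal2 and Hyal1 lie next to each other on chromosome 9. Hyal2 (ENSMUSG00000010047, chr9:107567945-107572779, + strand), a membrane-anchored enzyme that cuts long hyaluronan, was at 24.9, 25.3 and 23.9 FPKM with siSox9 and at 23.1, 21.2 and 21.3 FPKM with siNC. Each siSox9 library was above each siNC library, though siNC replicate 1 came close. Hyal2 rose by 0.17 on the log2(FPKM + 1) scale (SE 0.04, 95% interval 0.07 to 0.27, limma, Benjamini-Hochberg adjusted p = 0.0255), a 1.13-fold higher mean. This call was not firm: it was lost without siSox9 replicate 1 (adjusted p = 0.0787), siSox9 replicate 2 (0.0912), siNC replicate 2 (0.0766) or siNC replicate 3 (0.0847), and when values were turned into TPM (0.0764).

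Hyal1 (ENSMUSG00000010051, chr9:107576927-107581710, + strand), the lysosomal hyaluronidase, was at 2.31, 2.05 and 1.92 FPKM with siSox9 and at 2.17, 2.01 and 1.81 FPKM with siNC. The groups overlapped almost fully, with a difference of 0.05 on the log2(FPKM + 1) scale (SE 0.07, 95% interval -0.12 to 0.22, limma, adjusted p = 0.668) that became 0.00 (-0.003) without siSox9 replicate 1. Hyal1 shares 1920 exon bases, 50.8% of its exons, with Naa80 on the same strand, so its level is uncertain. Naa80, an actin N-terminal acetyltransferase, was at 4.91 ± 0.313 and 4.73 ± 0.583 FPKM. The Hyal2 level was 11.8 ± 0.901 times the Hyal1 level with siSox9 and 11.0 ± 0.668 times with siNC (SD, n = 3 each, exact permutation test, two-sided p = 0.2).

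Of the other 10 genes listed for hyaluronan breakdown, 7 were in the table and 4 were tested. Among these 1 rose, where 12.8% of all genes tested rose, and the median was 0.03 on the log2(FPKM + 1) scale. Hexa, a lysosomal hexosaminidase subunit that removes terminal sugars, was at 18.9, 20.1 and 19.8 FPKM with siSox9 and at 14.5, 13.5 and 13.8 FPKM with siNC. It rose by 0.46 (SE 0.04, limma, adjusted p = 0.000331) without overlap, a larger difference on that scale than that of either Hyal gene. Gusb, the lysosomal glucuronidase, was at 103% of the siNC mean and did not pass (limma, adjusted p = 0.428).

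Vcan (ENSMUSG00000021614, chr13:89655312-89742509, - strand), the gene of versican, a large proteoglycan that binds hyaluronan in the matrix, was at 2.85, 2.62 and 2.36 FPKM with siSox9 and at 3.31, 3.01 and 3.06 FPKM with siNC. Its siSox9 values were below its siNC values in every library. The difference of -0.19 on the log2(FPKM + 1) scale (SE 0.07, 95% interval -0.35 to -0.04) did not pass the threshold (limma, adjusted p = 0.0594). It passed without siSox9 replicate 1 (-0.24, adjusted p = 0.0455) and with limma voom on the recovered reads (-0.26, adjusted p = 0.00575), which gave 815 to 1062 reads per library with siSox9 and 1052 to 1189 with siNC.

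Versican is known as a product of stromal cells, whose markers are therefore given beside it. Of 8 fibroblast and pericyte markers, 7 were in the table and summed to 6.97 to 8.52 FPKM with siSox9 and 8.69 to 9.76 FPKM with siNC, which did not overlap. None was at 0 throughout a group, and Col1a1, the collagen I chain that led the sum, was at 5.79 ± 0.707 and 6.78 ± 0.498 FPKM (SD, n = 3 each). Col1a1 was the marker tested and did not pass on the FPKM scale (limma, adjusted p = 0.118), but with limma voom on the recovered reads it fell, as Vcan did there (-0.23, adjusted p = 0.0322). Pdgfrb was at 0.591 and 0.763 FPKM with siSox9 and siNC, and Pdgfra at 0.233 and 0.227 FPKM. The 6 endothelial markers, led by Cdh5 and Emcn, summed to 3.06 to 3.30 FPKM with siSox9 and 3.35 to 4.34 FPKM with siNC, without overlap. They did not move together. Cdh5, Emcn and Pecam1 had lower means with siSox9, while Kdr, Tek and Tie1 had higher means, at 122%, 138% and 109% of the siNC mean. Cdh5 was the 1 endothelial marker tested and did not pass (limma, adjusted p = 0.449), while Emcn, under the minimum, was at 0.664 ± 0.0527 and 1.08 ± 0.0718 FPKM and passed lower in the limma fit without a minimum (adjusted p = 0.0331). The part of these cells in the Vcan values was not tested.

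Among 6 versican proteases 3 were tested and 2 rose, where 12.8% of all genes tested rose. Their median was 0.13 on the log2(FPKM + 1) scale. Adamts4 was at 1.25, 1.33 and 1.20 FPKM with siSox9 and at 0.946, 0.792 and 0.937 FPKM with siNC, and rose by 0.26 (SE 0.07, limma, adjusted p = 0.0319). Adamts5 rose by 0.13 (SE 0.03, adjusted p = 0.0209, limma), from 41.9 ± 1.38 to 46.0 ± 0.365 FPKM (SD, n = 3 each). Both calls were lost, leaving 0, without siSox9 replicate 1, siSox9 replicate 2, siNC replicate 2 or siNC replicate 3, and 1 was left without siSox9 replicate 3.

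Tnfaip6 (ENSMUSG00000053475, chr2:52038009-52056686, + strand), which encodes TSG-6, the inflammation-induced protein that loads heavy chains onto hyaluronan, was barely detected. It was at 0.0227, 0 and 0.122 FPKM with siSox9 and at 0.0471, 0.121 and 0.0471 FPKM with siNC, or 6 and 9 reads in all. These are near the 0.0707 FPKM that 3 reads are worth for this gene, so no difference was detectable at this depth. The other matrix proteins that organise hyaluronan were scarce too. Of 14 listed, 13 were in the table and none reached a mean of 1 FPKM, and Hapln1, the cartilage link protein, and Itih1, an inter-alpha-trypsin inhibitor heavy chain, were listed at 0 in all 6 libraries. Their sum was 0.309 to 0.431 FPKM with siSox9 and 0.672 to 0.825 FPKM with siNC. The highest mean among them was 0.1535 FPKM, so the sum rests on few reads, and its difference was not tested.

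Of 9 other receptors and binders of hyaluronan 6 were tested, 1 rose and 1 fell, with a median of -0.10 on the log2(FPKM + 1) scale. Over all genes tested 12.8% rose and 17.6% fell. Tlr4, an innate immune receptor reported to sense hyaluronan fragments, was at 3.55, 4.09 and 4.03 FPKM with siSox9 and at 2.52, 2.82 and 2.78 FPKM with siNC, and rose by 0.40 (SE 0.06, limma, adjusted p = 0.00341). Tlr2, its relative, was at 8.99, 8.48 and 8.57 FPKM with siSox9 and at 11.6, 10.8 and 10.6 FPKM with siNC, and fell by 0.31 (SE 0.04, limma, adjusted p = 0.00257). In both genes the groups did not overlap, as in 46.3% of all genes tested. Lyve1 and Stab2, endocytic hyaluronan receptors of lymphatic and sinusoidal endothelium, were below 0.01 FPKM on average in both groups.

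The proteins that bind CD44, cut it or splice its mRNA gave a mixed picture. All 15 genes of this list were tested, 3 rose and 2 fell, with a median of 0.03 on the log2(FPKM + 1) scale. Over all genes tested 12.8% rose and 17.6% fell, so these counts are near the background. Esrp1, the epithelial splicing regulator known to promote inclusion of CD44 variant exons, was at 13.7, 13.7 and 13.1 FPKM with siSox9 and at 19.2, 18.4 and 19.0 FPKM with siNC. It fell by 0.45 (SE 0.04, limma, adjusted p = 0.000216), the largest difference of the list and opposite to that of Cd44. As a percentage of the Cd44 level, Esrp1 was 13.99 ± 0.597 with siSox9 and 23.7 ± 0.394 with siNC (SD, n = 3 each). This ratio had to separate the groups, since each gene alone did so in opposite directions, and it adds no further test. The Esrp1 paralog Esrp2 was at 92.2% of the siNC mean and did not pass (limma, adjusted p = 0.0902).

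Cd74, the receptor of macrophage migration inhibitory factor that signals through CD44, was at 21.4, 25.1 and 22.5 FPKM with siSox9 and at 34.9, 28.6 and 27.9 FPKM with siNC, and fell by 0.39 (SE 0.09, limma, adjusted p = 0.0187). Spp1, which encodes osteopontin, another CD44 ligand, was very abundant at 773, 760 and 782 FPKM with siSox9 and at 607, 627 and 677 FPKM with siNC, and rose by 0.28 (SE 0.05, limma, adjusted p = 0.00401). Msn, which encodes moesin, rose by 0.22 (SE 0.03, limma, adjusted p = 0.00168), from 376 ± 4.40 to 436 ± 5.29 FPKM (SD, n = 3 each). In these 3 genes, as in Esrp1 and in 46.3% of all genes tested, the groups did not overlap.
The remaining call was Ezr, which encodes ezrin, at a rise of 0.14 (limma, adjusted p = 0.0186). Rdx, the gene of radixin, was at 92.6% of the siNC mean and did not pass (adjusted p = 0.0741). The proteases Adam10, Adam17, Mmp14 and Mmp9, which cut the CD44 ectodomain, were at 98.4% to 109% of their siNC means and none passed. The 5 calls of this list were 3 without siSox9 replicate 1 and 3 without siSox9 replicate 3.

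Over the 7 pathway lists, 57 genes were tested and 31 passed the threshold, 18 of them in the mitotic list. Outside the mitotic list 13 of 37 passed, or 35.1%, near the 30.4% of all genes tested.

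**Figure D4:**
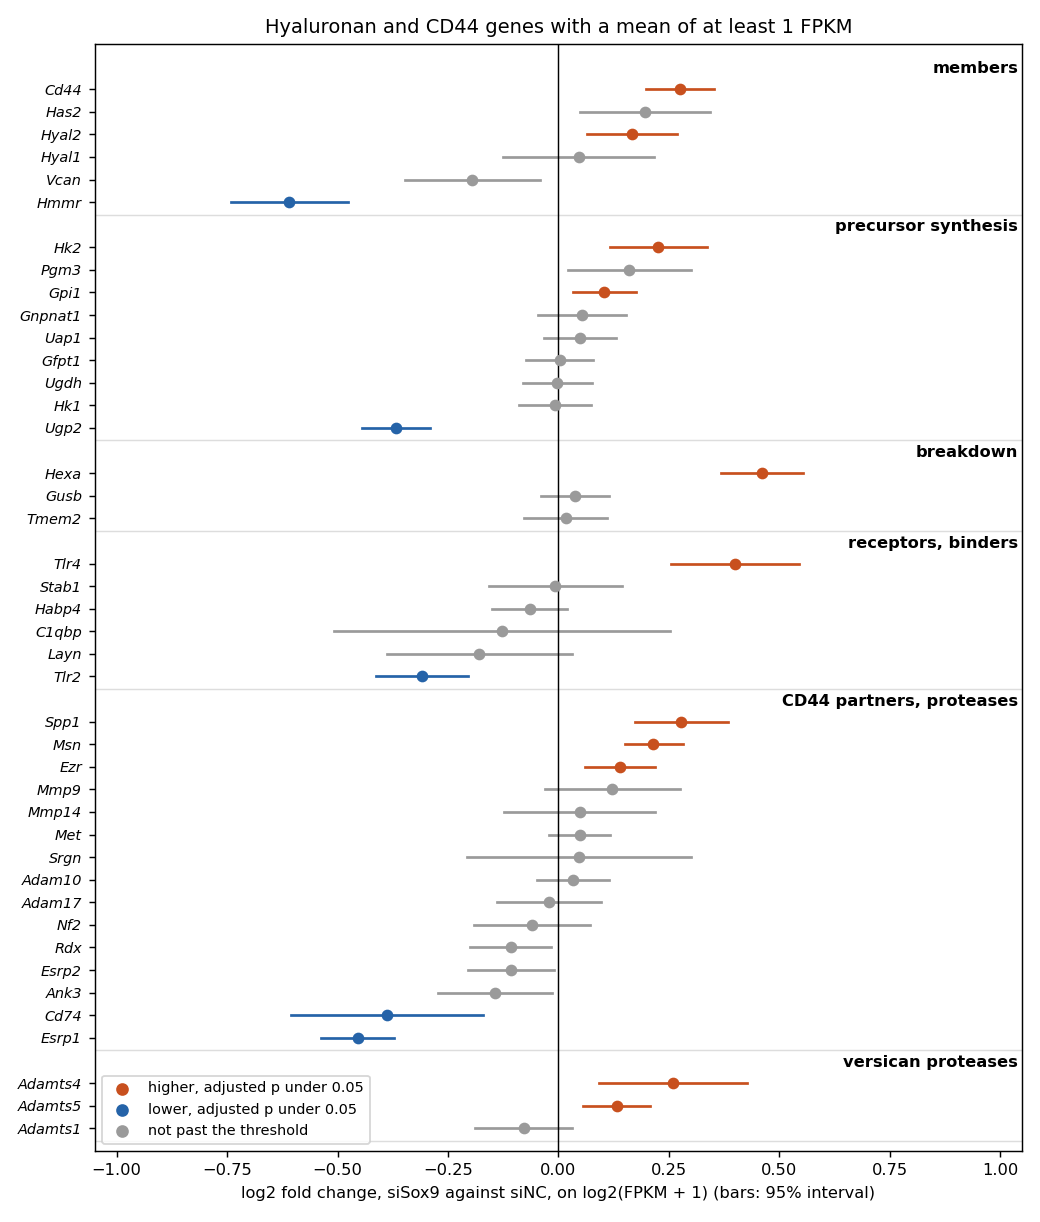
Difference between siSox9 and siNC on the log2(FPKM + 1) scale, with its 95% interval, for members and listed genes that had a mean of at least 1 FPKM, grouped by role. Orange and blue mark genes that passed the adjusted p threshold higher or lower, and grey those that did not. Each group holds genes on both sides of 0 apart from the breakdown genes shown, and Hmmr, at -0.61, lies farthest from 0; the mitotic list is not in this plot.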

How the data were processed

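RNA-Seq of mouse primary renal TECs after H/R was analysed in 6 libraries. The authors deposited FPKM values for each gene and library, with no further scaling between libraries. The submitters' processing notes list Bowtie2 2.2.3, HISAT2 2.1.0, TopHat2 and mm9 without their roles, whereas 93.4% of the genes had the position of GENCODE M21 in GRCm38, so positions are given in GRCm38. The counting tool, and whether it used strand, are not given in the sources used here. The control columns carry the name siNC; the other columns name an siRNA by a number and were taken as siSox9, the only other siRNA in the labels. Because FPKM scales each library to its own total, a change in a few abundant RNAs shifts all other values.

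The siSox9 and siNC libraries were compared in limma (version 3.58.1, R 4.3.3, lmFit and eBayes with trend=TRUE). Genes whose mean over the 6 libraries reached 1 FPKM entered, as log2(FPKM + 1), and the model had no block for replicate numbers. The threshold was a Benjamini-Hochberg adjusted p under 0.05. Whole reads were recovered from FPKM with GENCODE M21 exon lengths, for 27948 genes in all 6 libraries. Single ratios were compared with exact permutation tests. The remaining steps used Python 3.11.15 with scipy 1.17.1, pandas 2.3.3 and numpy 2.4.6, with plots from matplotlib 3.10.9. The read recovery, limma and limma voom were tested on simulated data. Of 102 genes simulated with a log2 change of 0.3, limma called 45 and limma voom 66. A gene that did not pass may therefore still differ by a small amount. The members and lists were chosen with earlier results of these data known. Genes named are all members, Sox9, up to 4 genes per pathway list past the threshold with the largest difference, the 2 most abundant markers per cell type, and the 3 genes nearest to Cd44 and to Hmmr; further genes of the lists were named after their values were seen. The values of 1 gene of the breakdown list are not reported here, in text or plot, though the counts of that list include it.

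Alternatives were a pseudocount of 0.1, a minimum of 5 FPKM or none, quantile-normalized values, median-centred values, TPM, a replicate block, an unmoderated linear model, limma voom on the recovered reads, and leaving out each library. A limma voom fit without a minimum in FPKM, over genes with at least 10 reads, and values rescaled without Gm23935 were chosen after seeing the data.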

Additional observations from a re-analysis of the deposited data

How the results depend on the processing

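Sox9, Cd44 and Hmmr kept their direction and stayed past the threshold in every alternative that gave a value; Hmmr, Has2, Vcan and Hyal1 could not be tested with a minimum of 5 FPKM, nor Has1 with limma voom. Over all genes, 3650 passed, against 2424 without siSox9 replicate 2 and 2424 to 3654 over the 6 leave-one-out fits. Of the members, 3 passed, with 2 to 4 over the leave-one-out fits and 5 with limma voom, with and without the minimum in FPKM, where Has2 and Vcan were added. Has2 passed with quantile-normalized values (0.25), TPM (0.25), median-centring (0.22) and limma voom with and without the minimum (0.24 in both), and ranged from 0.14 to 0.24 over the leave-one-out fits. Vcan passed with limma voom with (-0.26) and without the minimum (-0.26), and ranged from -0.24 to -0.14. Hyal2 was lost with no minimum (0.17), TPM (0.20), the unmoderated model (0.17) and without Gm23935 (0.16), and ranged from 0.14 to 0.20. Hyal1 turned to -0.003 without siSox9 replicate 1, and ranged up to 0.087. The cause was not tested.

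Median-centring moved the split of all calls to 1959 higher and 1765 lower, 52.6% higher against 42.0%, quantile normalization to 50.2% higher. With the replicate block 3262 genes passed and no member's call changed. Same-numbered libraries did not deviate together more than other pairs did (r of 0.065, -0.05 and 0.008 over genes, against -0.082 to 0.09). This cannot tell whether they shared an animal or a culture. The pathway lists held 25 to 34 calls over the leave-one-out fits, against 31. The versican protease count of 2 moved in 13 of 17 alternatives, to 0 with TPM and to 1 with the block. Depth limits Tnfaip6, Has1 and Has3 most.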
